A study of Mus musculus with 9 samples.

Results

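Mitochondrial ribosomal protein genes were followed in the mouse cochlea as a set of 76 genes read by 156 probe sets, out of 18193 genes read by 34945 probe sets that carry exactly 1 gene symbol. A probe set belonged to the set when its only symbol was Mrpl or Mrps followed by a number, and no expression value entered that rule. The set itself was chosen with earlier results of these data known. Of the 156 probe sets, 132 passed the filter on dim signal (84.6%, against 64.2% of all probe sets with 1 symbol), and every one of the 76 genes kept at least 1 of them. The 24 probe sets below the filter belonged to 22 of the same genes. Another 4 probe sets that name a member beside another gene were left out, and Mrpl30 and Mrpl53 are not represented for that reason.

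All animals were male C57BL/6 mice, an inbred strain that loses hearing with age. Young controls (YC) were 4 months old and old controls (MC) 15 months old, both on 84 kcal a week, and restricted animals (CR) were also 15 months old but had received 62 kcal a week, 26% less, since the age of 2 months. Each of the 3 samples in a group pooled 4 cochleae from 2 mice, so that a group rests on few animals, and each was hybridised to its own 1-colour Affymetrix array. The design asks what age does (MC against YC) and what restriction does at the later age (CR against MC), and CR was also set against YC.

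The mitochondrial ribosome translates the few messenger RNAs that mitochondrial DNA encodes, all of which specify subunits of the respiratory chain and the ATP synthase. Its RNA comes from the mitochondrial genome, whereas all of its proteins are made from nuclear genes in the cytosol and imported. Some of these proteins have a counterpart in the bacterial ribosome and others are found only in mitochondria. Cells of the stria vascularis and the sensory hair cells of the cochlea have a high demand for ATP, and inherited defects of mitochondrial translation are among the known causes of hearing loss.

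By structure, the measured set held 29 large-subunit proteins with a bacterial counterpart, 20 without one in the bacterial large subunit, 17 small-subunit proteins with a counterpart and 9 without. Mrps30 and Mrps18a were placed among the 20 despite their names, whereas Mrps18b and Mrps18c were placed with the small-subunit proteins that have a counterpart. Mrps36 was put in no class, since its product is now known as a component of the alpha-ketoglutarate dehydrogenase complex.

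Before the members' values, the state of the arrays is needed to read them. The median deposited signal lay between 526.8 and 626.6 on 4 arrays, which are all 3 CR arrays and YC replicate 1, and between 842.4 and 1103.9 on the other 5, which are all MC arrays and YC replicates 2 and 3. Of 20 cochlear marker genes 14 passed the filter, among them Otos, Gjb6 and Kcnj10. Cochlear markers were higher in CR than in MC for 9 of 14 genes (median log2 change 0.90, none past the adjusted threshold in limma) and higher in CR than in YC for 10 of 14 (median 0.83), and with age the median was 0.08. Skeletal muscle markers were lower in CR than in MC for 18 of 18 genes (median -2.11, 12 of them past the adjusted threshold in limma), and brain markers were higher for 14 of 16 (median 1.25, none past it). With age muscle markers were higher for 18 of 18 (median 0.32) and brain markers lower for 10 of 16 (median -0.31), and in CR against YC muscle markers were lower for 18 of 18 (median -1.69) and brain markers higher for 14 of 16 (median 0.92). In CR against MC, erythroid and neutrophil markers were lower for 10 of 11 (median -0.52), adipocyte markers higher for 6 of 7 (median 0.43) and bone markers higher for 5 of 8. The part of these tissues and of the array classes in the members' values was not tested. In whole-organ RNA, fewer cells of a type and less RNA per cell cannot be told apart.

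The promoters of the members were read because genes of this set are often described as targets of nuclear respiratory factors. RefSeq windows of 300 bases (assembly GRCm38.p6, 250 bases before the transcription start and 50 after) were found for 67 of the 76 genes. Searched on both strands were GCATGCG, the core of the NRF-1 motif, CCGGAAG, the ETS motif that NRF-2 (GABP) binds, and AAGATGG, the YY1 motif. The ETS letters stood in the windows of 25 of 67 members (37.3%), against 9.93% of all 27025 genes with a window and 17.2% of the 10931 whose probe sets passed the filter. The YY1 letters stood in 13 members (19.4%, against 7.28% and 7.91%) and the NRF-1 core in 8 (11.9%, against 4.01% and 6.52%). At least 1 of the 3 motifs was found for 37 members (55.2%, against 19.3% and 28.1%) and none for 30. The members' windows had a median GC content of 58.7%, against 52.7% for all windows and 60% for those of the measured genes. A match is a run of letters and not a shown binding site. The 250 bases before the start are printed for 3 large-subunit genes whose brightest probe sets were higher in CR than in MC and whose windows differ in these motifs, 5′ to 3′ on the gene's strand, with motif letters in capitals.

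Mrpl17 (chr7:105811088-105811337, minus strand): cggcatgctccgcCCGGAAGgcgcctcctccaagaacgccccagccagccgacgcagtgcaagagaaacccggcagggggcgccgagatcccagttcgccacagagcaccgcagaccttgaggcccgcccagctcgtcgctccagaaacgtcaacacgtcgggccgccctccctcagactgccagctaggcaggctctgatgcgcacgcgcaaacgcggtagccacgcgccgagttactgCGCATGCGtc

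Mrpl43 (chr19:45006443-45006692, minus strand): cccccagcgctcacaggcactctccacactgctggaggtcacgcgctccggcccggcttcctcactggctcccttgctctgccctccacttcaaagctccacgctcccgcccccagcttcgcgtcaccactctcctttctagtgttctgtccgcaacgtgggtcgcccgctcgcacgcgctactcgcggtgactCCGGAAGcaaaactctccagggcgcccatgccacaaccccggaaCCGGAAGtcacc

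Mrpl40 (chr16:18876638-18876887, minus strand): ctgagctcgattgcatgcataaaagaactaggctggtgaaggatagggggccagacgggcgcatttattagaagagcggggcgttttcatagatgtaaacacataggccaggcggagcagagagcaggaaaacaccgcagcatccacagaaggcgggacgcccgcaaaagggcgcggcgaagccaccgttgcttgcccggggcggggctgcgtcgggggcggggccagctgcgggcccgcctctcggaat

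The Mrpl17 window holds the ETS letters far upstream and the NRF-1 core, read on both strands, next to the start. That of Mrpl43 holds the ETS letters at 2 places near the start, and none of the 3 motifs was found for Mrpl40.

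The set was first followed array by array. On each array the members' normalized log2 signals were expressed as deviations from each gene's mean over the 9 arrays, and the median deviation was 0.08, -0.49 and 0.15 on YC replicates 1 to 3, 0.06, 0.11 and -0.15 on the MC arrays and 0.19, 0.10 and 0.12 on the CR arrays. YC replicate 2 stood lowest and MC replicate 3 next, and the other 7 arrays lay between 0.06 and 0.19. The same median over all 13702 named genes was -0.12 on YC replicate 2 and -0.0045 on MC replicate 3. YC replicate 2 was the lowest of the 9 arrays for 34 of 76 members (44.7%, against 28.2% of all named genes), and MC replicate 3 for 17 (22.4%, against 16.4%). For this reason several results that involve young controls are also given without YC replicate 2. That array also stood apart over all probe sets kept. Its correlation was 0.53 to 0.58 with the CR arrays, 0.70 to 0.76 with the MC arrays, 0.56 with YC replicate 1 and 0.71 with YC replicate 3. CR arrays correlated with each other at 0.93 to 0.94. MC replicate 3 correlated at 0.65 to 0.69 with the CR arrays and at 0.78 and 0.77 with MC replicates 1 and 2.

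**Figure D1:**
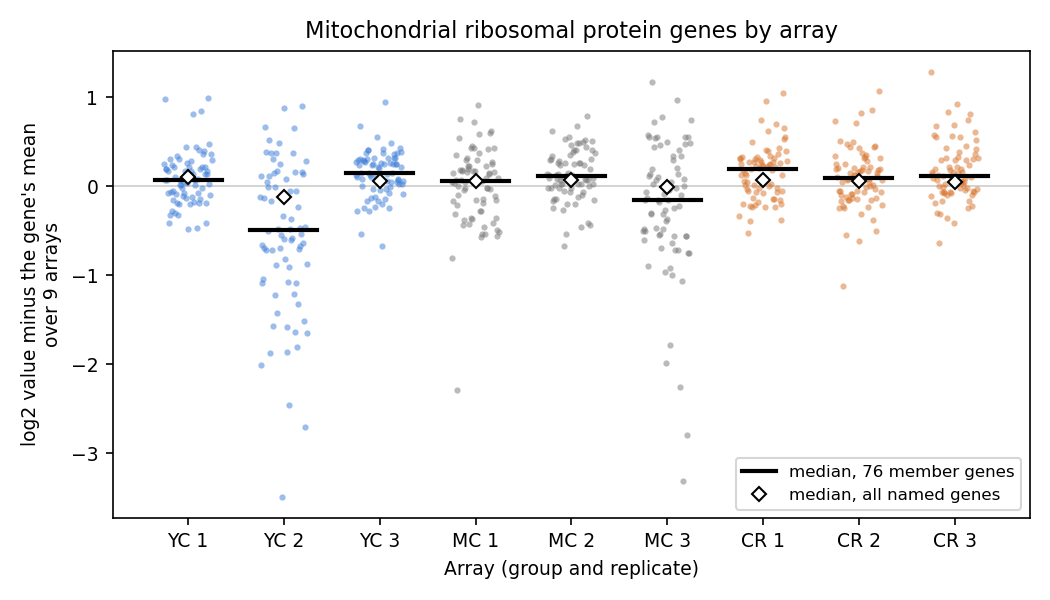
Deviation of the 76 mitochondrial ribosomal protein genes from each gene's own mean over 9 arrays (vertical axis, log2 units) on each YC, MC and CR array, with the members' median beside that of all named genes. The members' median lies lowest on YC replicate 2 (-0.49) and between 0.10 and 0.19 on the CR arrays.

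Members varied less within CR than within the other groups. The median within-group SD of a member's log2 signal was 0.43 in YC, 0.405 in MC and 0.126 in CR, where all named genes gave 0.514, 0.404 and 0.189. From YC replicates 1 and 3 alone the members' median SD was 0.12 (0.288 for all named genes). A median SD from 2 arrays tends to be lower than one from 3, so it is not comparable with the values above. Members also moved together from array to array slightly more than other genes, with a mean pairwise correlation of 0.125 over 9 arrays against 0.013 for all named genes, and of 0.055 against 0.006 without YC replicate 2. These correlations share the same 9 arrays and are a description only.

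With age, no member passed the test. The set was counted on the brightest passing probe set of each gene, with limma, and a call was a Benjamini-Hochberg adjusted p under 0.05 over all 27022 probe sets tested. None of 76 members passed (0% of all probe sets did), none had an unadjusted p under 0.05 (1.36% of all probe sets did as higher and 2.03% as lower), and the smallest adjusted p was 1. In no member did all 3 MC arrays lie above or below all 3 YC arrays, which 5.88% of all probe sets did (2.97% as higher and 2.92% as lower). The log2 change from YC to MC was above 0 in 47 of 76 members (52.3% of all probe sets), with a median of 0.07 (0.02 for all) and a range from -0.85 to 0.98. Without YC replicate 2 it was above 0 in 27 members, and the median was -0.09, so the direction of the set with age rests on that array. With each array centred on its median in place of quantile normalization, 18 members were higher with age, and 35.7% of all probe sets. Within the 5 arrays of high median signal, which hold 3 MC and 2 YC arrays, 47 members were higher, with a median of 0.14. YC replicate 2 is 1 of those 2 young arrays, so this count rests on it as well.

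The precision of the age comparison can be read from its intervals. The 95% confidence interval of the age change lay wholly within a 2-fold change in either direction for 48 of 76 members (63.2%, against 39.7% of all named genes). No member's estimate passed 2-fold.

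Some members have known roles in disease or at defined sites of the ribosome. Values for them without YC replicate 2, which leaves 2 young arrays, were computed after the data were seen. Mrps12 encodes the protein of the decoding centre whose bacterial counterpart is the site of streptomycin resistance. Its log2 signal was 11.88, 12.35 and 11.92 in YC, 12.18, 12.22 and 12.76 in MC and 12.08, 12.28 and 12.13 in CR, and the age change was 0.33 ± 0.24 (SE, n = 3 and 3), or 0.48 without YC replicate 2. The YC and MC arrays overlapped, because YC replicate 2 exceeded the lower MC arrays.

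Mrps7, whose human gene is mutated in a syndrome with congenital deafness, gave 11.44, 9.40 and 11.52 in YC, 11.02, 11.53 and 10.32 in MC and 11.35, 11.26 and 11.49 in CR. One YC and one MC array were low, and all 3 groups overlapped. The age change was 0.17 ± 0.53, and -0.52 without YC replicate 2. Mrps16, Mrps22, Mrps34 and Mrpl44 are further genes of human mitochondrial translation disorders, and their age changes were -0.03 ± 0.20, -0.05 ± 0.37, 0.02 ± 0.22 and -0.09 ± 0.33. The small-subunit gene Mrps14 gave -0.22 ± 0.24. None of these estimates differs from 0 by more than its error. Without YC replicate 2 they were -0.0071, -0.10, -0.12, 0.13 and -0.20, so that Mrps34 and Mrpl44 turned.

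The stalk of the large subunit recruits translation factors. Its genes Mrpl12, which also binds the mitochondrial RNA polymerase, Mrpl10 and Mrpl11 had age estimates of 0.09 ± 0.26, 0.27 ± 0.30 and 0.11 ± 0.31. Without YC replicate 2 these were -0.19, 0.31 and -0.01. Mrpl3, Mrpl28 and Mrpl41, a protein also studied for a role in apoptosis, gave 0.39 ± 0.34, 0.05 ± 0.27 and 0.32 ± 0.22, and Mrps36 gave 0.22 ± 0.28. Without that array Mrpl3 gave -0.02, Mrpl28 0.22, Mrpl41 0.41 and Mrps36 0.33. All overlapped between YC and MC when the 3 young arrays were used.

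Calorie restriction gave no member past the threshold either. Of all 27022 probe sets 25 passed (0.0925%), 1 higher in CR (0.0037%) and 24 lower (0.0888%), and 0 of 76 members did. Unadjusted p under 0.05 was met by 1 member as higher, Mrpl17, and 1 as lower, Mrpl19, where 8.99% of all probe sets met it as higher and 9.54% as lower. In 20 members (26.3%) all CR arrays lay to one side of all MC arrays, 12 above and 8 below, and 37.8% of all probe sets did so. That share of members is below the background, and the estimates of 6 members passed 2-fold (7.89%, against 17.1% of all named genes).

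The log2 change from MC to CR was above 0 in 50 of 76 members (54.7% of all probe sets), with a median of 0.12 (0.08 for all) and a range from -1.45 to 1.79. Scaling changed this split: with arrays centred on their medians, 74 members were higher, with a median of 0.87, and 71.7% of all probe sets were higher, with a median of 0.58. With the deposited scaling kept, 58 were higher and the median was 0.26, against -0.04 for all probe sets. The direction turned when array class was a term of the model, which rests on YC replicate 1 as the array of the other class within a group: 33 members were then higher, with a median of -0.09. The 95% interval lay within 2-fold for 43 members (56.6%, against 30.4% of all named genes). The size of the rise in the reported fit depends in part on MC replicate 3. The members' median deviation was -0.15 on that array, against 0.06 and 0.11 on MC replicates 1 and 2. On CR replicates 1 to 3 it was 0.19, 0.10 and 0.12, so that CR replicate 2 lay below MC replicate 2.

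By structure, the median change with restriction was 0.07 for the 29 large-subunit proteins with a bacterial counterpart (18 higher), 0.44 for the 20 without one (13 higher), 0.06 for the 17 small-subunit proteins with a counterpart (11 higher) and 0.19 for the 9 without (8 higher). With array class as a term the 4 medians were -0.11, 0.15, -0.10 and -0.38. With age the medians were 0.11, -0.13, 0.07 and 0.18, and without YC replicate 2 -0.10, -0.20, -0.02 and -0.08. The difference between classes was not tested.

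**Figure D2:**
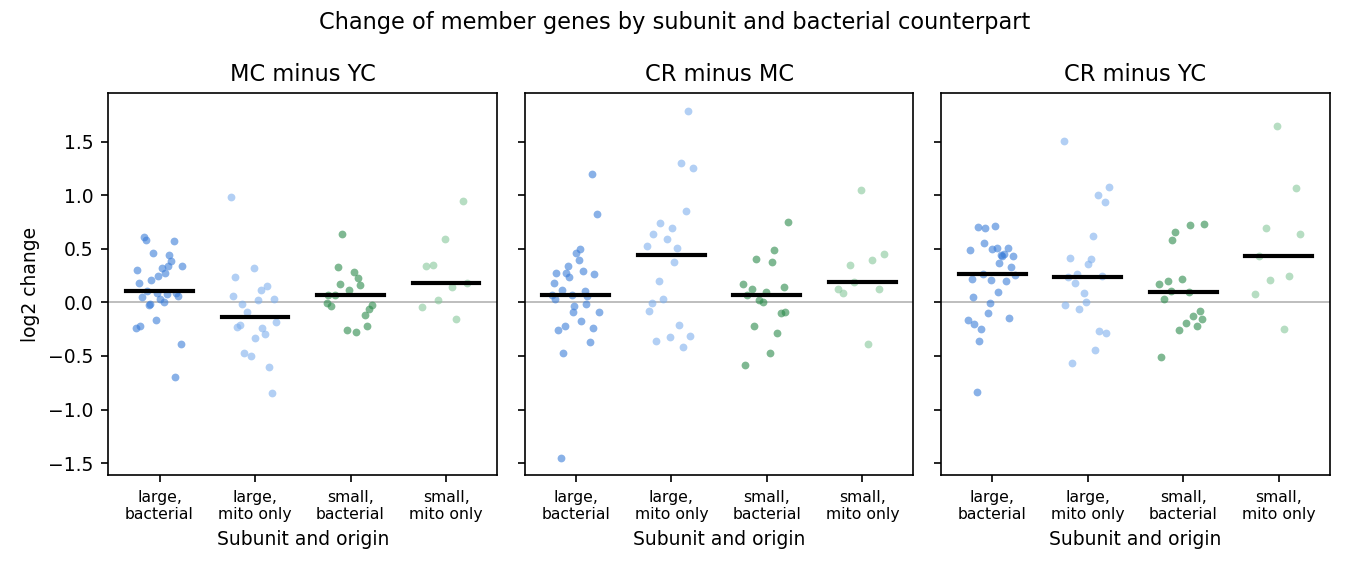
Log2 change of each member (points) by structural class, in the age comparison (MC minus YC), with restriction (CR minus MC) and for CR minus YC, with the median of each class. Medians with restriction run from 0.06 for small-subunit proteins with a bacterial counterpart to 0.44 for large-subunit proteins without one, and each class has members on both sides of 0.

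Among large-subunit proteins with a bacterial counterpart, Mrpl19 had the largest negative change. Its brightest probe set gave log2 signals of 10.42, 10.99 and 10.23 in YC, 11.23, 10.60 and 11.65 in MC and 9.95, 9.35 and 9.84 in CR. All CR arrays lay below all MC and all YC arrays, and MC overlapped YC. The change with restriction was -1.45 ± 0.37 (2.73-fold lower, adjusted p = 0.154 in limma), and over the alternatives the adjusted p went down to 0.0178. It passed the threshold in 3 of them: with array weights, with only CR and MC in the fit, and without YC replicate 2. The remaining passing probe sets of Mrpl19 went the other way, by 0.90 ± 1.02 and 1.61 ± 0.99.

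Mrpl17, whose bacterial counterpart lies near the exit of the peptide tunnel, had the smallest p among the members that were higher in CR. Its brightest probe set gave 12.18, 11.70 and 12.54 in YC, 11.67, 12.19 and 11.41 in MC and 12.69, 12.47 and 12.57 in CR. All CR arrays lay above all MC arrays and YC replicates 1 and 2, and YC replicate 3 stood among the CR arrays. The change was 0.82 ± 0.28 (1.77-fold higher, adjusted p = 0.194 in limma), and array weights alone among the alternatives took it past the threshold (adjusted p = 0.0274). Its dimmer probe sets were lower in CR, by -1.19 ± 0.43 and -0.89 ± 0.54, and the mean over all 3 was -0.42.

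The large-subunit proteins classed as without a bacterial counterpart held the largest positive estimates. Mrpl40 gave 11.43, 8.93 and 10.88 in YC, 10.09, 10.95 and 7.65 in MC and 11.49, 11.52 and 11.05 in CR. The CR arrays were close together and above every MC array, and MC replicate 3 and YC replicate 2 were far lower than the rest. The change was 1.79 ± 0.81 (adjusted p = 0.270), and 0.83 without MC replicate 3.

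Mrpl43 gave 11.90, 9.25 and 11.31 in YC, 11.20, 11.58 and 8.80 in MC and 11.76, 11.91 and 11.81 in CR. The same pair of arrays, YC replicate 2 and MC replicate 3, was low, and CR lay just above the other MC arrays. Its change of 1.3 ± 0.76 was 0.43 without MC replicate 3. Mrpl45, which tethers the ribosome to the inner membrane beside the tunnel exit, gave 10.99, 8.0 and 10.14 in YC, 9.20, 9.99 and 9.41 in MC and 10.31, 10.75 and 11.30 in CR. Here MC replicate 3 did not stand apart, CR lay above all MC arrays, and the change was 1.25 ± 0.66, or 1.19 without that array. With array class as a term both genes turned, to -0.32 and -0.67.

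Mrpl58, a peptidyl-tRNA hydrolase built into the large subunit that frees stalled ribosomes, was higher in CR by 0.69 ± 0.37 (0.33 without MC replicate 3). Its passing probe sets differed in sign. Mrpl37 was higher by 0.52 ± 0.86, with CR arrays at 11.31, 11.28 and 11.13 against 10.73, 11.11 and 10.30 in MC. Its SE is large because YC replicate 2 stood at 7.08 against 11.01 and 11.11 on the other young arrays, and all 9 arrays share one estimate of the spread. With array class as a term the change was -1.39. Lower in CR in this class were Mrps30, a homologue of a protein linked to apoptosis, by -0.42 ± 0.25, and Mrpl57 by -0.32 ± 0.20 (0.033 with that term). No adjusted p in these genes was below 0.270.

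**Figure D3:**
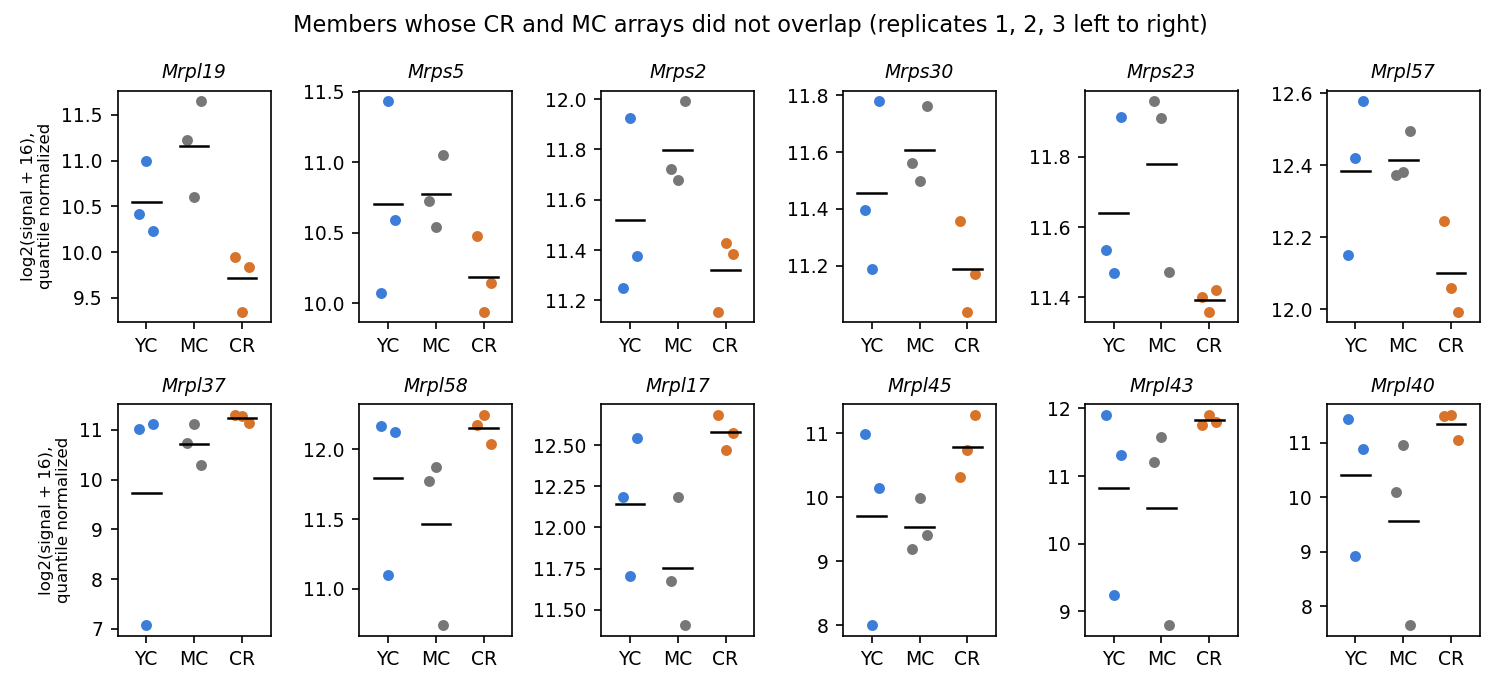
Normalized log2 signal (vertical axis, own scale for each gene) of named members on the 9 arrays in YC, MC and CR, with the group means. For Mrpl19 all CR arrays lie below the other arrays, and for Mrpl40 and Mrpl43 YC replicate 2 and MC replicate 3 lie far below the rest.

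In the small subunit, 19 of 26 members were higher in CR (median 0.13). CR and MC did not overlap in 3 members as higher and 3 as lower (23.1%, against 37.8% of all probe sets). The 3 lower ones are described below because they were among the 6 largest falls, whereas the 3 higher ones were not among the 6 largest rises. Of the higher ones, Mrps6 changed by 0.49 ± 0.27 (adjusted p = 0.335 in limma). Mrps5, whose bacterial counterpart bears on the accuracy of decoding, gave 10.08, 11.43 and 10.59 in YC, 10.73, 10.54 and 11.05 in MC and 10.47, 9.94 and 10.14 in CR. All CR arrays were below all MC arrays, and YC spanned both. The change was -0.59 ± 0.38 (adjusted p = 0.412 in limma), or 0.35 in the model with a term for array class. The passing probe sets of Mrps5 differed in the sign of this change.

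Mrps2, another gene whose human defects include hearing impairment, gave 11.25, 11.93 and 11.38 in YC, 11.72, 11.68 and 11.99 in MC and 11.15, 11.43 and 11.38 in CR. CR lay below MC, YC replicates 1 and 3 lay among the CR arrays, and the change was -0.48 ± 0.26 (adjusted p = 0.333 in limma). The passing probe sets of Mrps2 also differed in sign. Mrps23, found only in mitochondria, was lower by -0.39 ± 0.24. Its 2 dimmer probe sets were higher, by 1.66 ± 0.57 and 0.44 ± 0.36.

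The remaining fixed members overlapped or nearly so between MC and CR. Changes with restriction were -0.24 ± 0.26 for Mrpl12, whose CR arrays all lay below MC, -0.18 ± 0.30 for Mrpl10, -0.47 ± 0.31 for Mrpl11, 0.06 ± 0.34 for Mrpl3, 0.03 ± 0.33 for Mrpl44, -0.32 ± 0.22 for Mrpl41 and -0.25 ± 0.27 for Mrpl28. In the small subunit they were -0.22 ± 0.24 for Mrps12, 0.14 ± 0.24 for Mrps14, 0.06 ± 0.20 for Mrps16, 0.12 ± 0.37 for Mrps22, 0.19 ± 0.22 for Mrps34 and 0.41 ± 0.53 for Mrps7. Mrps18a gave 0.64 ± 0.29 and Mrps36 -0.27 ± 0.28. These estimates were within 2 SE of 0 but for Mrps18a, where MC replicate 2 reached the CR range.

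Different probe sets of the same gene often disagreed. Of the 36 members with several passing probe sets, the sign of the change with restriction differed among them in 20 and agreed in 16, and with age it differed in 21. Mrpl3 is a case: its brightest probe set gave 0.06 and the others 1.59 ± 0.95 and -1.20 ± 0.38. How often probe sets differ in sign over all named genes was not computed, so this is not a trait shown for the set. The brightest probe sets of such members were higher in CR in 21 of 36 cases (58.3%, against 56.9% over all named genes with several). Their dimmer ones were higher in 28 of 56 (50%, against 62.4%), and the only probe set of a member in 29 of 40 (72.5%). Where probe sets of one gene part, the direction given for the gene is that of its brightest probe set only.

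**Figure D4:**
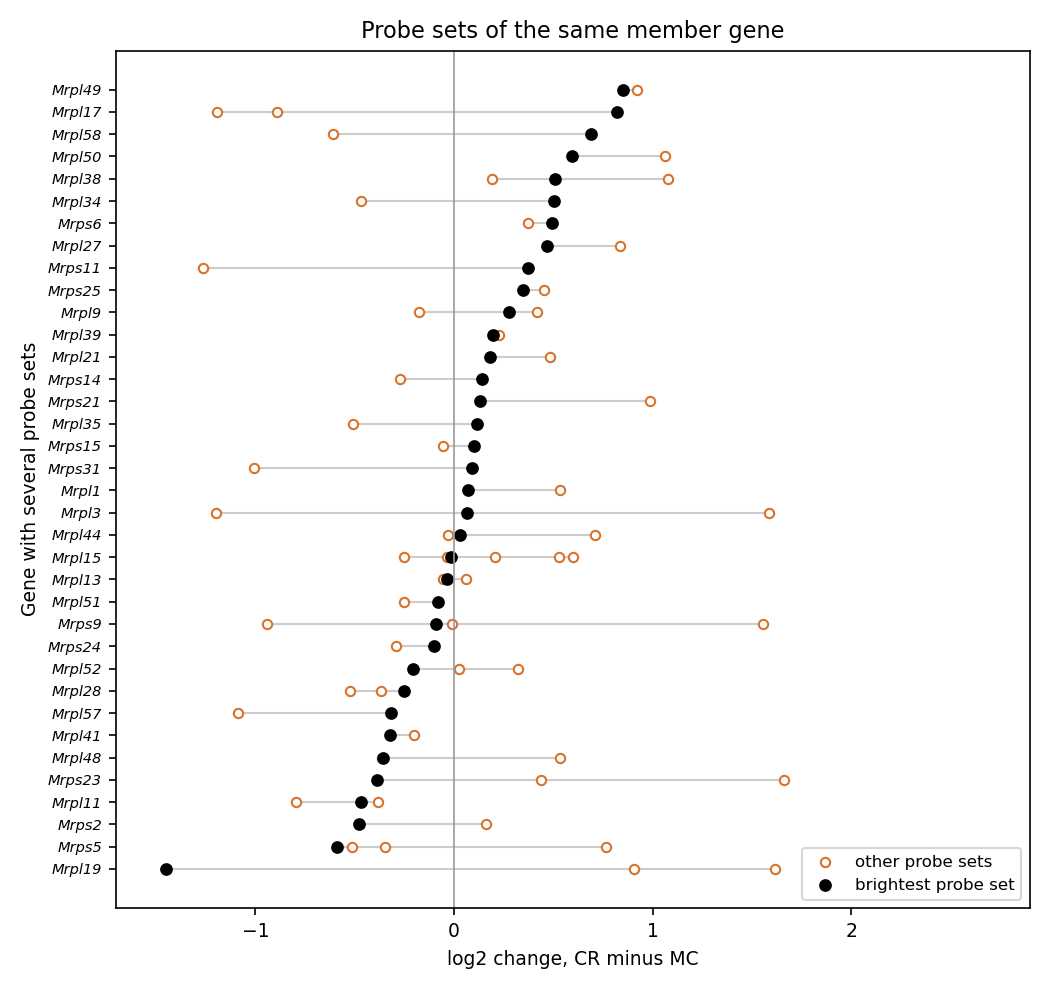
Log2 change with restriction (CR minus MC, horizontal axis) for the 36 members with several passing probe sets, with filled points for the brightest probe set and open points for the others. In 20 genes the points lie on both sides of 0, among them Mrpl19 and Mrpl17.

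Restricted old mice were also set against young controls. No member passed the threshold in limma (0% of all probe sets did). Unadjusted p under 0.05 was met by 2 members as higher, Mrps6 and Mrps27, and by 2 as lower, Mrpl19 and Mrpl52 (5.21% and 5.56% of all probe sets). Groups did not overlap in 13 members (17.1%), 8 higher and 5 lower in CR, against 20.5% of all probe sets. The change was above 0 in 52 members (54.7% of all probe sets), with a median of 0.22 (0.08 for all), and without YC replicate 2 in 46, with a median of 0.05. Centred arrays gave 73 members and 69.6% of all probe sets as higher. Among the arrays of low median signal, 3 CR arrays and YC replicate 1, 47 members were higher, with a median of 0.06.

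Mrps27, a pentatricopeptide repeat protein of the small subunit, had the largest estimate. It gave 10.05, 7.91 and 9.10 in YC, 10.68, 10.17 and 7.99 in MC and 10.72, 10.59 and 10.69 in CR. CR lay above every young array, and the YC arrays spread widely. The change was 1.65 ± 0.71 (adjusted p = 0.462 in limma), and 1.10 without YC replicate 2. On that omission the estimate for Mrpl37 went from 1.51 ± 0.86 to 0.18, and that for Mrpl16, a protein near the peptidyl transferase centre, from 0.55 ± 0.31 to 0.24.

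Mrps6, with an adjusted p of 0.457 in limma, gave 13.50, 12.47 and 12.65 in YC and 13.34, 13.70 and 13.74 in CR, and the groups overlapped through YC replicate 1. The change was 0.72 ± 0.27, or 0.52 without YC replicate 2. Mrpl52 gave 12.93, 13.23 and 13.10 in YC and 12.65, 12.77 and 12.50 in CR, without overlap, a change of -0.45 ± 0.19 (-0.37 without YC replicate 2). Mrpl19 was lower than in YC by -0.84 ± 0.37 (-0.61 without it). The others with separated groups among the largest changes were Mrpl36 (0.51 ± 0.87), Mrpl27 (0.49 ± 0.23) and Mrps31 (0.43 ± 0.30) as higher and Mrpl48 (-0.57 ± 0.33), Mrps23 (-0.24 ± 0.24) and Mrps9 (-0.16 ± 0.30) as lower. None of them passed after adjustment. Without YC replicate 2 these estimates were 0.24, 0.28, 0.21, -0.24, -0.33 and -0.11. In this comparison the passing probe sets of Mrpl19, Mrpl48, Mrpl52, Mrps9, Mrps23 and Mrps31 differed in sign.

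Young arrays fell on the restricted side of MC in unequal numbers. Of the 12 members with CR above all MC arrays, YC replicate 1 was also above all MC arrays in 9 (75%, against 82% of all named genes), YC replicate 2 in 1 (8.33%, against 17.8%) and YC replicate 3 in 5 (41.7%, against 38.5%). Of the 8 members with CR below, YC replicate 1 was below in 6 (75%, against 80.2%), YC replicate 2 in 3 (37.5%, against 27.7%) and YC replicate 3 in 2 (25%, against 42.1%). YC replicate 1 shares its array class with CR, so the position of young animals relative to MC and CR cannot be told apart from array class in these genes.

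The members were set beside related gene groups. The quartiles of their changes with restriction were -0.09 and 0.40. Cytosolic ribosomal proteins, which build the other ribosome of the cell, had median changes of -0.02 with age (-0.14 without YC replicate 2) and 0.11 with restriction over 43 genes, with the quartiles of the latter at -0.01 and 0.21, and none was called. Subunits of the respiratory chain and ATP synthase, the complexes that the mitochondrial ribosome serves, had medians of 0.04 and 0.02 over 79 genes, with quartiles at -0.12 and 0.14 with restriction, and 1 was called lower with restriction, Cox6a2, a subunit form of striated muscle. The median SE of a change was 0.322 for members, 0.191 for cytosolic ribosomal proteins and 0.2 for the respiratory chain. Differences between these groups were not tested.

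Other genes of mitochondrial translation were followed as lists, none of which had a gene past the threshold in any comparison. Genes named from these lists are fixed genes of known role and those with the smallest p, so they do not stand for their lists. Mitoribosome subunits under other names were higher in CR than in MC in 4 of 4 genes (median 0.14). Ptcd3, a pentatricopeptide protein of the small subunit, gave 11.40, 11.01 and 10.65 in YC, 11.13, 10.63 and 10.32 in MC and 11.41, 11.51 and 11.37 in CR, a change of 0.73 ± 0.30 (adjusted p = 0.243 in limma). Dap3, a GTP-binding subunit, gave 0.12 ± 0.39.

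Translation factors were higher in CR in 8 of 11 (median 0.48). Tsfm, the exchange factor of the elongation factor Tufm, gave 9.61, 9.90 and 9.64 in YC, 8.36, 8.64 and 9.32 in MC and 10.06, 10.40 and 9.95 in CR. MC lay below both other groups, with changes of -0.94 ± 0.41 with age and 1.36 ± 0.41 with restriction (adjusted p of 1 and 0.179 in limma). Tufm itself gave 0.16 ± 0.41 with restriction. Mrrf, which recycles ribosomes after termination, was lower in CR by -0.79 ± 0.27.

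Among aminoacyl-tRNA synthetases, which charge mitochondrial tRNAs, 9 of 13 were higher in CR (median 0.11). Hars2, a gene of Perrault syndrome with hearing loss, gave 9.94, 10.14 and 9.44 in YC, 7.42, 7.83 and 9.31 in MC and 9.89, 9.71 and 10.02 in CR. All MC arrays were below all YC and CR arrays, by -1.66 ± 0.54 with age (adjusted p = 1) and 1.69 ± 0.54 with restriction (adjusted p = 0.187 in limma). Rars2 gave 0.78 ± 0.29, and Lars2, another gene of that syndrome, -0.33 ± 0.38 with age (-0.09 without YC replicate 2) and 0.19 ± 0.38 with restriction.

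Assembly and rRNA modification factors were higher in CR in 17 of 24 (median 0.17). Nsun4, a methyltransferase of the mitochondrial rRNA, gave 1.06 ± 0.36, whereas the GTPase Mtg2 gave -1.09 ± 0.34 and Eral1, a chaperone of the small-subunit rRNA and also a Perrault gene, -0.47 ± 0.25. Genes of mitochondrial DNA maintenance and transcription were higher in 15 of 19 (median 0.29). Tfb2m, a transcription initiation factor, gave 1.89 ± 0.64, Trmt10c, a subunit of the mitochondrial RNase P, 1.48 ± 0.44, Twnk, the helicase, 1.54 ± 0.60, and Tfam, which packages the genome, 0.78 ± 0.41. The RNA polymerase Polrmt gave 0.08 ± 0.25 and Lrpprc, which stabilises mitochondrial messengers, 0.13 ± 0.37.

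Regulators of mitochondrial biogenesis were higher in CR in 11 of 12 (median 0.37). Sirt3, the mitochondrial deacetylase, gave 11.27, 11.09 and 11.47 in YC, 10.35, 10.67 and 11.19 in MC and 11.73, 11.68 and 11.72 in CR, with CR above both other groups, a change of 0.97 ± 0.28 and an adjusted p of 0.171 in limma. Sirt1 gave 0.98 ± 0.42, the coactivator Ppargc1a 0.64 ± 0.42, Gabpa 0.55 ± 0.34, Yy1 0.39 ± 0.32 and Nrf1 -0.45 ± 0.38. Binding of Gabpa, Yy1 or Nrf1 to the members' promoters was not tested. With array class as a term, the restriction medians of the 6 lists, in the order given, were -0.88, -0.084, -0.014, -0.068, -0.36 and -0.33, so the direction of every one of these lists turned with that term. With the deposited scaling the synthetases (-0.19) and the assembly factors (-0.0032) were also below 0, and the array median as a covariate turned all but the translation factors and the synthetases.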

How the data were processed

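Total RNA of pooled cochleae was labelled with biotin and hybridised to 9 one-colour arrays, per the labels' protocols. GCOS 1.3 is named in the submitters' processing notes, with neither a signal algorithm nor a scaling. For 45037 probe sets a linear intensity was deposited. The mean signal of an array, trimmed by 2% at each end, lay between 1493.6 and 1496.4 on all 9 arrays. The deposited values thus already shared a common overall level, and the arrays differed in the shape of their distribution. Array medians still differed 2.1-fold, so log2(intensity + 16) was computed from the deposited intensities and quantile normalized. This scale understates a log2 change where the signal is dim.

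The 27022 probe sets whose mean log2 signal reached the 40th percentile were fitted with limma 3.58.1 in R 4.3.3, with 3 group means over all 9 arrays, eBayes with a variance trend, Benjamini-Hochberg adjustment over all 27022 and a threshold of 0.05. Errors are SE of that fit, and having 3 arrays a group limits precision. Tests were tried on simulated data with independent noise for each probe set. Those data hold no array classes or outlying arrays, so the trial cannot show how the tests behave on these arrays. Nothing says how the pools were drawn beyond 2 mice each, and p-values measure the spread between these pools.

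A gene is represented by its brightest passing probe set, through a platform annotation that can be old, updated by RefSeq gene IDs. Members, lists and tests were chosen with earlier results of these data known. Named per comparison were called members, the 6 largest changes in each direction without overlap, fixed genes of known role, and members chosen after their values were seen (Mrps6). From each related list, fixed genes and any called gene were named, and where none was called the genes with the smallest p. Levels of different probe sets were not compared. Alternatives covered pseudocount, filter, normalization, variance trend, weights, samples in the fit, replicate number, array class and median, probe sets per gene and each array left out.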

Additional observations from a re-analysis of the deposited data

How the results depend on the processing

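Of 24 alternatives, 22 gave a count of called members with age and 22 in CR against YC, and it was 0 in all of these. The 21 that gave one for restriction called members only with array weights (2, Mrpl19 and Mrpl17), with only the groups compared (1, Mrpl19, adjusted p = 0.0403) and without YC replicate 2 (1, Mrpl19, adjusted p = 0.0463). Leaving out 1 array at a time gave between 0 and 1 called members with restriction. The cause of the differences below was not tested.

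Of all probe sets, restriction called 25 in the reported fit, 7 with the deposited scaling, 3397 with array weights, 1846 with only the groups compared, and 0 with centred arrays, without a variance trend, with array class as a term or with the array median as a covariate. Leaving out 1 array gave 0 to 987 (987 without YC replicate 2, 251 without YC replicate 1, 48 without MC replicate 2). CR against YC called 3 within the arrays of low median signal and 0 to 363 on leaving out 1 array (363 without YC replicate 1), against 0. The F test over the groups called 0, but 1 without a signal filter, 1 with the deposited scaling, 1027 with array weights and 0 to 146 on leaving out 1 array. The iteration for array weights stopped before convergence, and fits that leave out an array kept the normalization and filter of all 9.

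Members higher with age numbered 18 with centred arrays (median -0.21) and 27 to 54 on leaving out 1 array. With restriction 33 were higher with array class as a term and 27 with the array median as a covariate (median -0.14). Centred arrays gave medians of 0.87 with restriction and 0.70 for CR against YC, where all probe sets also shifted, by 0.58 and 0.39 (-0.15 with age).

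Of 516 values of named members under alternatives, 4 passed the threshold and 27 had the opposite sign. With centred arrays the change with restriction was 0.23 for Mrps2, 0.25 for Mrps30, 0.31 for Mrps23 and 0.56 for Mrpl57, and that in CR against YC was 0.032 for Mrpl48, 0.25 for Mrpl52, 0.19 for Mrps23 and 0.26 for Mrps9. With array class as a term the change with restriction was -0.32 for Mrpl43, -0.67 for Mrpl45, -1.39 for Mrpl37, 0.35 for Mrps5 and 0.033 for Mrpl57. With the array median as a covariate it was -0.30 for Mrpl43, -0.23 for Mrpl45, -1.46 for Mrpl37 and 0.11 for Mrps5, and Mrpl36 was -0.015 in CR against YC. With the mean of all passing probe sets, restriction gave -0.42 for Mrpl17, 0.36 for Mrpl19 and 0.57 for Mrps23, and CR against YC gave -0.21 for Mrps31, 0.67 for Mrpl19, 0.017 for Mrpl48, 0.080 for Mrpl52, 0.33 for Mrps23 and 0.45 for Mrps9. Mrps27 did not pass a filter at the 60th percentile.

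Same-numbered arrays of different groups had correlations of their deviations between -0.29 and 0.266, and differently numbered ones between -0.24 and 0.275. The numbers thus gave no sign of a pairing, but 3 arrays a group are too few to settle that none exists. With a replicate block, restriction called 0 of all probe sets and 0 members, and not every array correlated best with its own number.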

Other observations

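Promoter letters and expression were set side by side after the values were seen, and no test was made. In CR against YC, 31 of the 37 members whose window holds at least 1 of the 3 motifs were higher in CR (median log2 change 0.36), and 15 of the 30 members whose window holds none were (median 0.03). Without YC replicate 2 the counts were 27 of 37 (median 0.06) and 14 of 30 (median -0.02). With restriction, 27 of 37 and 18 of 30 were higher (medians 0.20 and 0.07), and with age 21 of 37 and 19 of 30 (medians 0.03 and 0.08).

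Among member probe sets, the Spearman correlation between mean signal and the change with restriction was -0.213 (132 probe sets of the same 9 arrays), against -0.021 over all 27022 kept, and with age it was 0.031 against 0.058. Over the 76 members, deviations on YC replicate 1 correlated with those on the CR arrays at 0.58 to 0.62, and CR arrays correlated with each other at 0.69 to 0.71. These values share arrays and are a description.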
